A study of Mus musculus with 31 samples.

Results

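The 44 genes described here encode proteins of the skeletal muscle sarcomere, of muscle calcium handling and of muscle energy supply. Genes were taken from a named list that was chosen with earlier results of these data known. Counts of members that changed therefore describe the list and are no independent test of it. All 44 of the 44 listed had a probe set that the probe table assigns to a single symbol, out of 18193 genes measured this way. Where a gene had several probe sets, the one with the highest mean over all arrays stood for it. The mice were of the C3H/HeJ strain and their skin was sampled with established AA, taken to mean alopecia areata, an autoimmune hair loss to which this strain is prone. Mice received PBS, a buffered saline, or a compound known only by the code jak1i or jak3i, applied topically. Arrays were made at 0, 6 and 12 weeks in all 3 arms, with 3 arrays in each of these 9 groups. The jak1i and jak3i arms had 2 further arrays each at 24 weeks, which gave 11 groups and 31 arrays in all. All groups shared the strain and the tissue, and the sources used here give no dose, age or body site. Replicates are called biological. Values are log2 signals normalised by the authors with RMA, on which 1 unit is a doubling.

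A sarcomere is the contractile unit of striated muscle, in which myosin thick filaments pull on actin thin filaments that are anchored at the Z disc. Calcium released from the sarcoplasmic reticulum acts on the troponins of the thin filament, and creatine kinase, glycolysis and oxidative enzymes supply the energy. Fast and slow fibres use different isoforms of many of these proteins. In mice a thin sheet of skeletal muscle, the panniculus carnosus, lies under the fat of the skin, so a skin sample that reaches this depth carries muscle RNA.

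The bases before the start of 6 members are shown. Acta1 (actin), Klhl41 (assembly), Myoz2 (Z disc) and Pgam2 (glycolysis) all fell in PBS from 0 to 12 weeks. Myoz2 is also counted as a slow fibre member and varied more than Acta1 on the other arrays. Myh4, a fast isoform, and Tnnc1, a slow one, did not pass the test used below for that time. The windows are RefSeq sequences of build GRCm38.p6, each of 150 bases that end at the base before the annotated start. Acta1 is at chr8:123894776-123894925 on the minus strand and Klhl41 at chr2:69669970-69670119 on the plus strand. Myoz2 is at chr3:123034988-123035137 on the minus strand and Pgam2 at chr11:5803797-5803946 on the minus strand. Myh4 is at chr11:67237662-67237811 on the plus strand and Tnnc1 at chr14:31208162-31208311 on the plus strand. Capitals mark matches, on either strand, to CAGCTG (a form of the E-box bound by myogenic factors), to CATTCC (an MCAT element), to the MEF2 motif or to the CArG box of serum response factor. All 6 windows shown hold such a match, while those of other members, such as Ttn, Ckm and Tnnc2, held none in the 150 bases.
Acta1: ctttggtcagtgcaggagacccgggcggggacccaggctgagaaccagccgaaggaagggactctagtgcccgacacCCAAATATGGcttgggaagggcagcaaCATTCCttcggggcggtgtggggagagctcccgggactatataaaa
Klhl41: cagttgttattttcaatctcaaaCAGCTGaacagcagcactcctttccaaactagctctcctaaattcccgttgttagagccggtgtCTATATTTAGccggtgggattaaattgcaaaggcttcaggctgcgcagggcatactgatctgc
Myoz2: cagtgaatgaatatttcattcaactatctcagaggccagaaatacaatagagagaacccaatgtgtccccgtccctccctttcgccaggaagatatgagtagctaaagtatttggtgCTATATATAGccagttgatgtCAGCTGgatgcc
Pgam2: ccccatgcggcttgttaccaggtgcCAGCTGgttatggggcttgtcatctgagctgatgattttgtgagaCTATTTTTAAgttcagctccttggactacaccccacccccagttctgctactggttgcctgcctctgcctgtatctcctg
Myh4: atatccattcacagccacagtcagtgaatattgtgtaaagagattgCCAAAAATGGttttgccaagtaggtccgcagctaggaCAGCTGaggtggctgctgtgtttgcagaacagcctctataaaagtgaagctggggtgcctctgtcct
Tnnc1: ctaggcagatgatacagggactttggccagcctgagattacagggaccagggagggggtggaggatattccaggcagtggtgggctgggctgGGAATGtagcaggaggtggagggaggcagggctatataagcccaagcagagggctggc
Of the 44 members, 33 had a window in the RefSeq promoter table, with 41 windows in all for genes with several starts. In the 250 bases before the start, CAGCTG was present in 48.8% of these 41 windows and in 13.0% of all 32851 windows of the table. The general E-box CANNTG, which includes CAGCTG, was in 80.5% against 66.2%. CATTCC was in 24.4% against 12.6%, the MEF2 motif in 19.5% against 2.9% and the CArG box in 12.2% against 1.5%. The letters TATAAA, counted on both strands as the other motifs were, stood in 17.1% of the member windows and 12.4% of all. These are matches of letters and describe the windows only.

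The muscle content of each array was summarised as the mean of the 44 members, each relative to its own mean over the 31 arrays. The 3 PBS arrays at 12 weeks had means of −4.75, −3.70 and −2.49. The other 28 arrays lay between −0.73 and 1.52, with a median of 0.33, so the 3 arrays stood apart from every other array. Among the 28, the order ran from PBS at 6 weeks replicate 2 at −0.73 to jak3i at 12 weeks replicate 1 at 1.52. Group means with their SD were 0.13 ± 0.69 in PBS at 0 weeks and 0.13 ± 0.79 in PBS at 6 weeks, with 3 arrays each. In jak1i they were −0.19 ± 0.50 at 0 weeks, 0.60 ± 0.71 at 6 weeks and 0.69 ± 0.47 at 12 weeks. In jak3i they were 0.25 ± 0.22, 0.52 ± 0.60 and 1.05 ± 0.58 at the same times. The 24-week arrays gave −0.37 and 0.52 in jak1i and 0.09 and 1.18 in jak3i. Outside PBS at 12 weeks, neighbouring groups in this order overlapped in their arrays. The values are those of whole skin, so fewer muscle fibres in a sample and less RNA per fibre cannot be told apart.

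**Figure D1:**
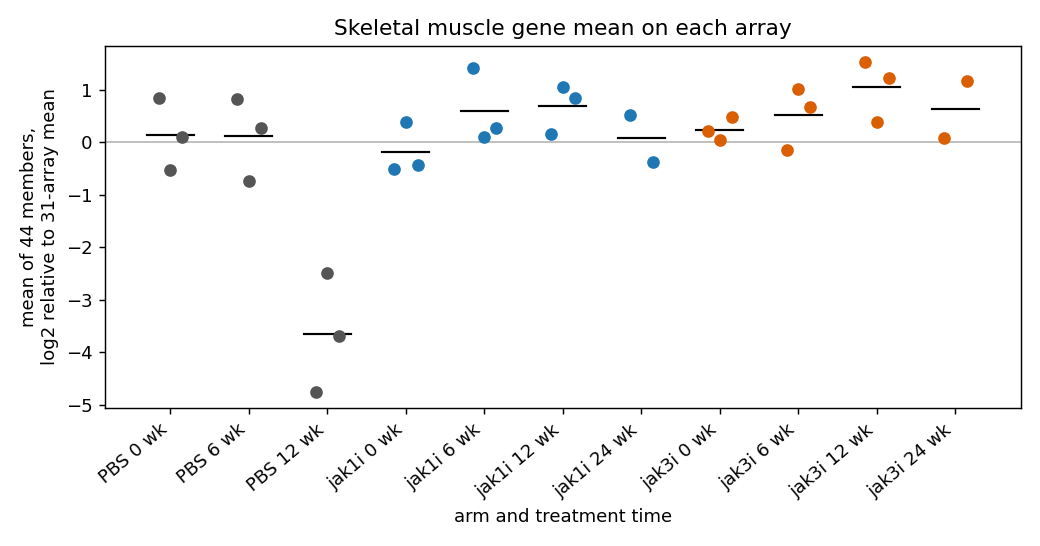
Mean of the 44 members on each of the 31 arrays (points, log2 relative to the 31-array mean of each gene) by arm and treatment time, with the group mean as a line. The 3 PBS arrays at 12 weeks lie between −4.75 and −2.49, below all 28 others.

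In the PBS arm, 39 of the 44 members fell from 0 to 12 weeks by limma with Benjamini-Hochberg adjustment over all genes, and 0 rose. Of all genes tested, 0.885% fell in this comparison. The median change of the 44 members was −3.79 on the log2 scale, against 0.03 for all genes. The fall ranged over roles: 9 of 9 Z disc and assembly genes, 8 of 8 calcium genes, 8 of 8 energy genes and 4 of 4 titin, nebulin and thick filament genes were called, but 5 of 7 myosin and actin genes and 3 of 6 troponins. Without PBS at 0 weeks replicate 1, whose muscle mean was the highest of its group at 0.84, the count was 25 of 44, with 3 of 8 calcium and 3 of 8 energy genes. The limma fit took 1 spread per gene from all 11 groups. The muscle mean had an SD of 1.13 in PBS at 12 weeks and 0.69 at 0 weeks. Intervals and p-values that involve PBS at 12 weeks may therefore be too tight. With only the compared arrays in the fit the count was 24 of 44. For 39 members the 3 PBS arrays at 12 weeks lay below all 28 other arrays, which held for 221 genes of the table or 1.21%. In 32 members, out of 70 genes of the table, the gap to the nearest other array was over 1 log2 unit.

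**Figure D2:**
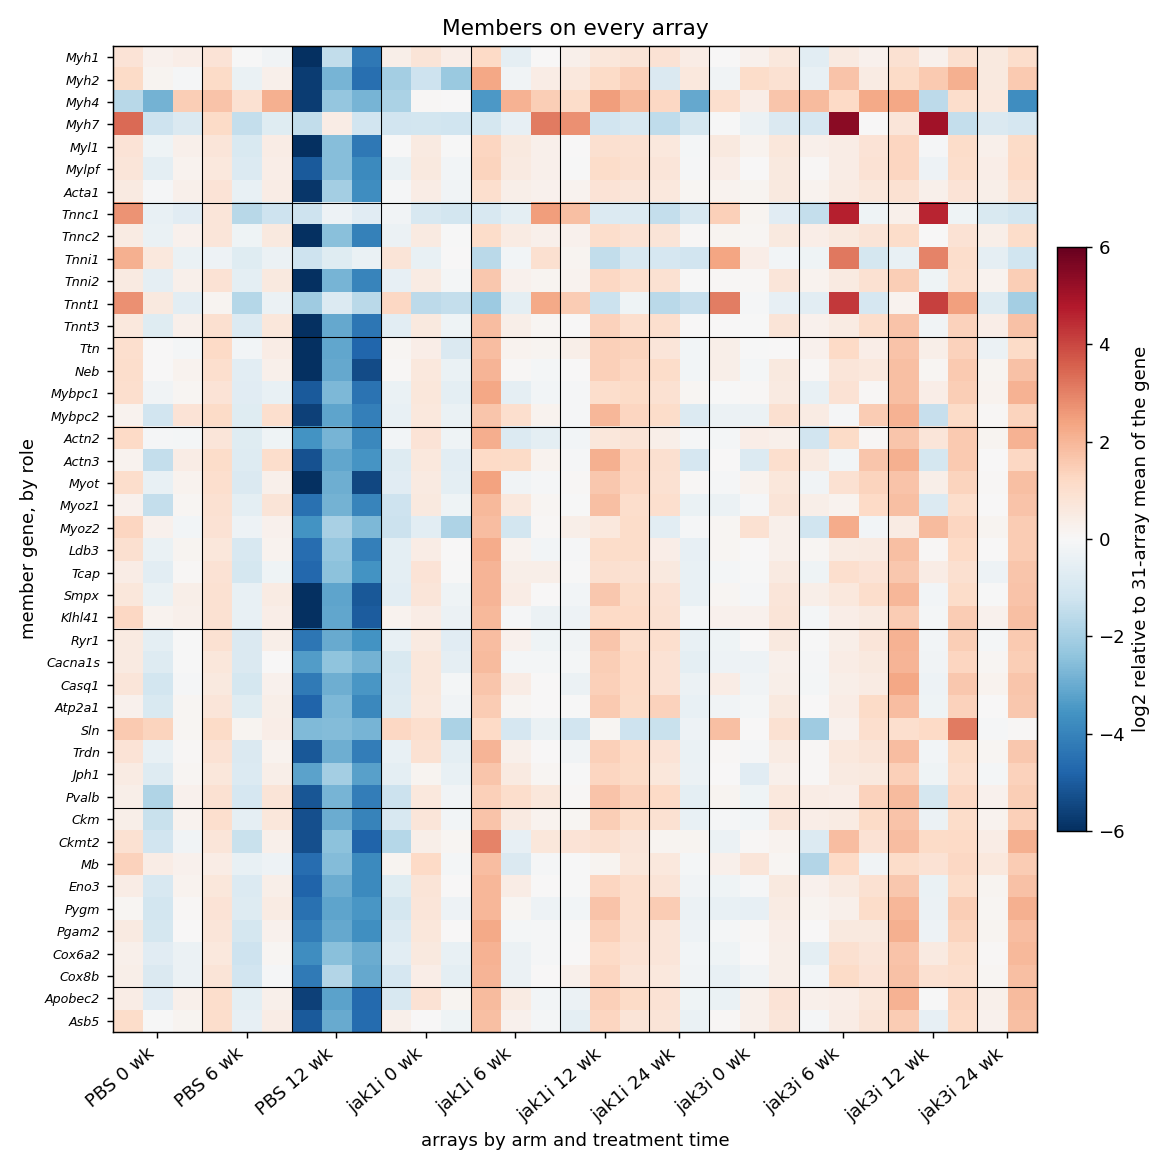
Log2 value of each of the 44 members (rows, grouped by role) on each of the 31 arrays (columns, by arm and treatment time), relative to the 31-array mean of the gene; colours end at −6 and 6. The PBS columns at 12 weeks are low for all but a few rows, and Myh7, Tnnc1, Tnnt1 and Tnni1 vary apart from the rest.

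Among the contractile filaments, Acta1, the skeletal α-actin of the thin filament, had values of 13.80, 13.17 and 13.55 in PBS at 0 weeks and 14.08, 12.77 and 13.71 at 6 weeks. At 12 weeks the 3 arrays read 7.38, 11.20 and 9.50, all below the other 28, which ran from 12.77 to 14.25. The change from 0 to 12 weeks was −4.15 (95% interval −5.28 to −3.02, SE 0.55), or 17.7-fold lower, with a limma adjusted p of 0.000355. This SE uses the spread shared by all groups, and the SD over the other 28 arrays was 0.37. The 3 arrays at 12 weeks spread more widely, so the interval may be too narrow. Myh1, a fast myosin heavy chain, read 6.60, 11.58 and 8.78 at 12 weeks, against 12.40 to 14.26 on the other 28 arrays. Its change of −4.56 ± 0.70 (SE) had a limma adjusted p of 0.00133. Myh2, the fast oxidative myosin heavy chain, read 5.07, 7.99 and 6.26 at 12 weeks and 11.94, 10.97 and 10.71 at 0 weeks, and fell by 4.77 (limma adjusted p = 0.000804). The light chain genes Myl1 and Mylpf fell by 4.66 and 3.94. Acta1, Myh1 and Tnnc2 lay near the top of the scale on the other arrays (Myh1 up to 14.26), where the highest value of the whole table is 14.69.

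Titin, nebulin and the thick filament genes had a median change of −4.74, the largest of the sarcomere groups. Neb, the nebulin that spans the thin filament, read 12.02, 10.99 and 11.16 in PBS at 0 weeks and 3.82, 7.86 and 5.60 at 12 weeks. No other array was below 10.33, so the groups did not overlap. Its change was −5.63 (95% interval −7.18 to −4.07), with a limma adjusted p of 0.00039. Of the 44 members, 33 read at or below 6.18, the median of all deposited values, on at least 1 of the 3 PBS arrays at 12 weeks, and 6 did on all 3. Neb did on 2 of the 3. The lowest value of the whole table is 2.59, and whether the low end of the scale limited such falls was not tested. Ttn, the titin that links Z disc and thick filament, read 5.19, 8.60 and 6.96 at 12 weeks against 10.87 to 13.57 elsewhere, and fell by 5.11. The myosin-binding proteins Mybpc1 and Mybpc2 fell by 4.37 and 4.26.

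At the Z disc, Klhl41, which stabilises nebulin, read 11.48, 10.43 and 10.56 at 0 weeks and 3.90, 7.15 and 5.24 at 12 weeks. All 3 of the later values were below the lowest of the other 28 arrays, 9.80. The change was −5.39 ± 0.68 (SE), with a limma adjusted p of 0.000355. Myot, a Z disc partner of α-actinin, fell by 5.20 and Smpx, a small muscle protein, by 4.97. The α-actinins Actn2 and Actn3, which cross-link thin filaments, fell by 3.78 and 3.70. Tcap, the titin cap, fell by 3.56 and Ldb3, a Z disc scaffold, by 3.89. The calsarcins Myoz1 and Myoz2 fell by 3.41 and 3.20, and Myoz2 had the narrowest gap of the 39 members without overlap, 0.09.

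The calcium genes had a median change of −3.61. Atp2a1, the fast fibre calcium pump, read 10.97, 9.82 and 10.88 at 0 weeks and 5.94, 8.03 and 6.86 at 12 weeks, below the other arrays at 9.82 or more. It fell by 3.61 (limma adjusted p = 0.00484). Ryr1, the calcium release channel, and Cacna1s, the voltage sensor that opens it, fell by 3.61 and 2.77. Trdn, which anchors the calcium store at the release channel, and Casq1, which holds the calcium, fell by 4.20 and 3.40, and Jph1, which joins the membranes there, by 2.78. Pvalb, the calcium buffer of fast fibres, fell by 3.62. Sln, an inhibitor of the calcium pump, read 9.21, 9.00 and 7.80 at 0 weeks and 5.01, 5.04 and 4.85 at 12 weeks, and fell by 3.70 (limma adjusted p = 0.0169).

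The energy genes had a median change of −3.63. Ckm, the muscle creatine kinase, read 12.25, 10.58 and 12.14 at 0 weeks and 6.66, 8.96 and 7.93 at 12 weeks. It fell by 3.80 (95% interval −5.15 to −2.46), with a limma adjusted p of 0.00347. The mitochondrial creatine kinase Ckmt2 fell by 4.03 and Mb, the oxygen-binding myoglobin, by 4.37. The glycolytic and glycogen genes Eno3, Pgam2 and Pygm fell by 3.76, 3.49 and 3.40. The muscle subunits of cytochrome c oxidase, Cox6a2 and Cox8b, had the smallest falls of the group, 2.82 and 2.72. Apobec2 and Asb5, 2 muscle-expressed genes outside these roles, fell by 4.53 and 4.64.

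The 5 members not called from 0 to 12 weeks were Myh4, Myh7, Tnnc1, Tnni1 and Tnnt1, and these 5 were also the ones whose PBS arrays at 12 weeks overlapped the rest. Myh4, the fastest myosin heavy chain, changed by −2.58 with a 95% interval of −5.51 to 0.35. Myh7, the slow myosin heavy chain, changed by −1.15 (−4.44 to 2.14). The slow troponins Tnnc1, Tnni1 and Tnnt1 changed by −1.27 (−4.04 to 1.50), −1.58 (−3.50 to 0.34) and −2.43 (−5.22 to 0.36). These intervals include falls as large as those of some called members.

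Against PBS at 6 weeks, 37 of 44 members were lower at 12 weeks, with a median change of −4.01, while 0.396% of all genes were lower. Neb fell by 5.42 and Acta1 by 4.16 in this comparison, with limma adjusted p = 0.000475 for both. The count was 19 without PBS at 6 weeks replicate 1 and 18 without PBS at 12 weeks replicate 1, the array with the lowest muscle mean. With only the compared arrays in the fit it was 0, and 40 members had an unadjusted p under 0.05. From 0 to 6 weeks 0 of 44 members passed in PBS, 0 had an unadjusted p under 0.05, and 0.00550% of all genes were called. The change of Acta1 over that time was 0.01 (95% interval −1.12 to 1.14) and that of Neb −0.21 (−1.76 to 1.35).

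Both inhibitor arms were compared with PBS at the same time to ask how the treated skin differed from the control. At 12 weeks 39 of 44 members were higher in jak1i than in PBS, while 6.85% of all genes were higher. In jak3i 40 of 44 were higher, while 10% of all genes were higher. The medians over the 44 members were 4.68 and 4.75, against −0.03 and −0.04 for all genes. The 2 comparisons share the 3 PBS arrays. Neb read 10.98, 12.37 and 12.21 in jak1i at 12 weeks and 12.78, 11.05 and 12.52 in jak3i, above the PBS values of 3.82, 7.86 and 5.60. Its differences were 6.09 (95% interval 4.54 to 7.65) and 6.36 (4.80 to 7.91), with limma adjusted p = 9.09e-05 and 4.7e-05. Acta1 was 4.46 higher in jak1i and 4.55 higher in jak3i. Ckm was 4.96 and 4.89 higher, and Myh2 5.42 and 5.96 higher. Sln was called in jak3i (4.47, limma adjusted p = 0.00178) and not in jak1i, where the difference was 1.94 (95% interval 0.27 to 3.61). Against PBS at 6 weeks as the control, a choice made after seeing the data, 0 of 44 members were called in either arm, with medians of 0.62 and 0.87 and with 0 and 4 members at an unadjusted p under 0.05.

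**Figure D3:**
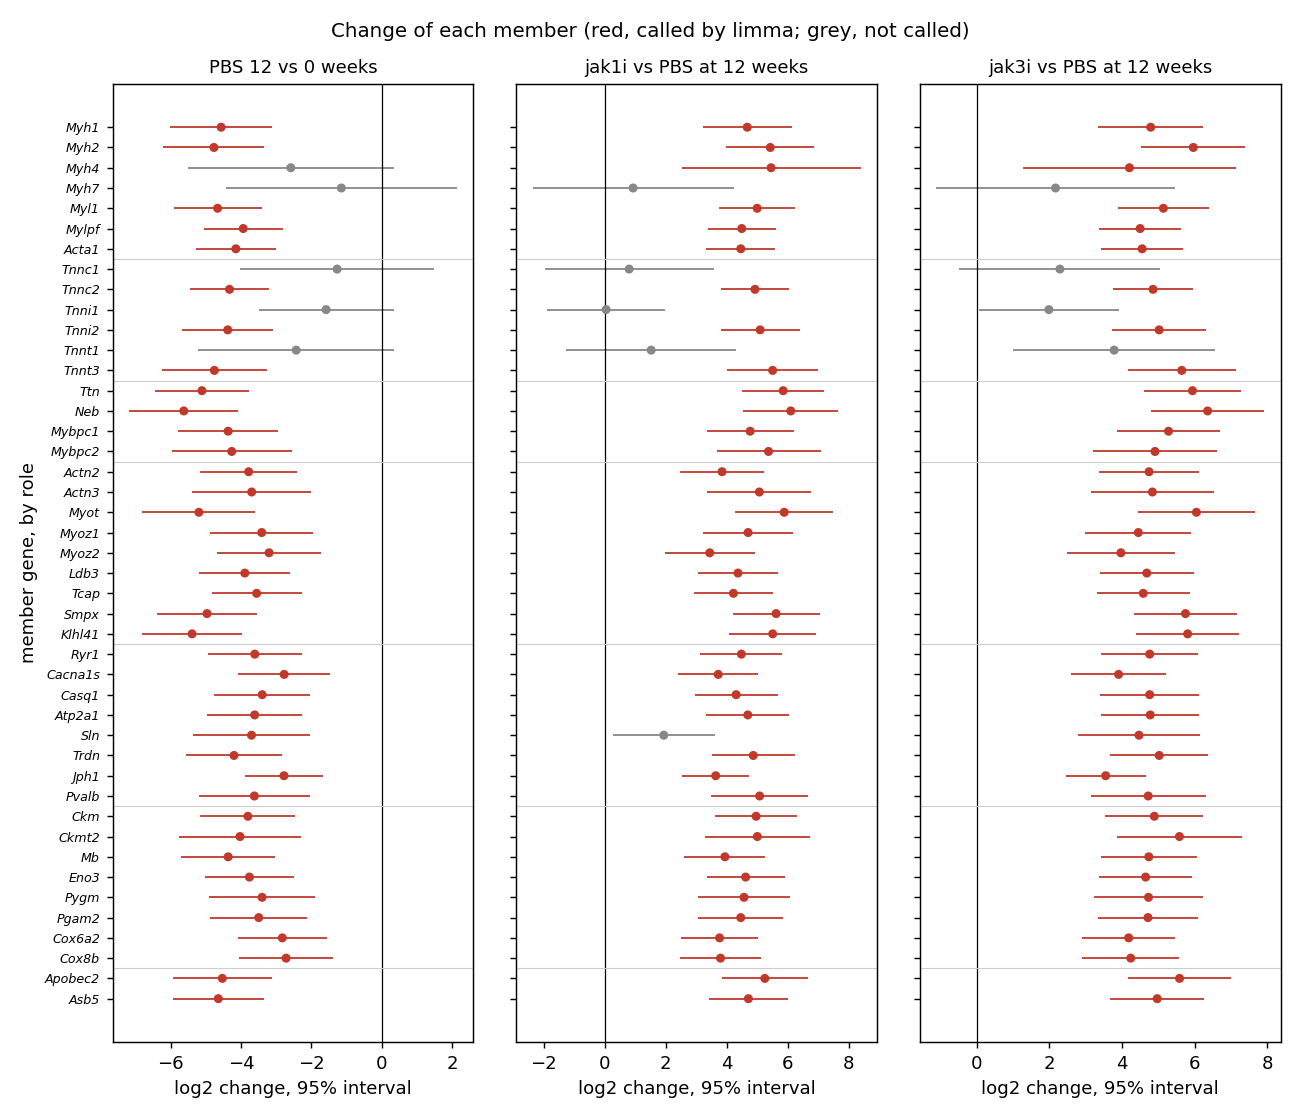
Log2 change of each of the 44 members with its 95% interval in PBS from 0 to 12 weeks (left) and in jak1i (middle) and jak3i (right) against PBS at 12 weeks; red marks a limma call and grey none. The called members lie far from 0 in all 3 panels, and Myh7, Tnnc1, Tnni1 and Tnnt1 are grey in each.

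At 0 weeks, 0 of 44 members differed between either inhibitor arm and PBS, and 0% of all genes were called in each of the 2 comparisons. At an unadjusted p under 0.05 there were 2 members in jak1i, Myh2 (−2.26) and Myoz2 (−1.73), and 0 in jak3i. At 6 weeks 0 members were called in jak1i against PBS (1.36% of all genes) and 0 in jak3i (1.94%), with 0 at an unadjusted p under 0.05 in both. The change from 0 to 12 weeks in each inhibitor arm was then set against the change in PBS, and the difference of the 2 changes was called for 38 of 44 members in jak1i minus PBS (2.99% of all genes higher) and for 39 in jak3i minus PBS (2.59%). It was 4.65 (95% interval 3.06 to 6.25) for Acta1 in jak1i and 4.50 (2.90 to 6.10) in jak3i, with limma adjusted p = 0.00834 and 0.0121. The jak3i count was 0 without jak3i at 12 weeks replicate 1, 0 without PBS at 0 weeks replicate 1 and 24 without PBS at 12 weeks replicate 3. In these 3 fits the medians were 4.36, 4.35 and 4.61, and 40, 39 and 39 members had an unadjusted p under 0.05.

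Within the inhibitor arms few members were called over time. In jak1i, Myh2 was the 1 member called from 0 to 6 weeks, when 12.4% of all genes were called, and again the 1 called from 0 to 12 weeks, when 16.3% were. It read 8.75, 9.52 and 8.58 at 0 weeks, 13.11, 10.59 and 11.25 at 6 weeks and 11.41, 11.94 and 12.24 at 12 weeks, so the later arrays were all above the 0-week arrays. The rises were 2.70 (95% interval 1.27 to 4.14, limma adjusted p = 0.0159) and 2.91 (1.48 to 4.35, limma adjusted p = 0.00844). The 6-week call was absent without jak1i at 0 weeks replicate 1, without replicate 3 of that group and without jak1i at 6 weeks replicate 1, and 2 members were called without jak1i at 6 weeks replicate 2. The 3 values of Myh2 in jak1i at 0 weeks were also below the 10.71 to 11.94 of PBS and the 10.55 to 11.91 of jak3i at that time. In jak3i 0 members were called from 0 to 6 weeks (3.15% of all genes) and 0 from 0 to 12 weeks (10.3%), with 0 at an unadjusted p under 0.05 in both. From 12 to 24 weeks 0 members were called in jak1i (0% of all genes) and 0 in jak3i (0.0330%), and 0 and 1 had an unadjusted p under 0.05. Between jak1i and jak3i at 12 weeks 0 members were called (0% of all genes), and 2 had an unadjusted p under 0.05. These were Sln, 2.53 lower in jak1i (difference −2.53, 95% interval −4.20 to −0.86), and Tnni1 (−1.94, −3.86 to −0.02). For Neb the interval of the difference was −1.82 to 1.29 and for Acta1 −1.22 to 1.04.

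Fast and slow fibre genes were compared within each array as the mean of 13 fast members minus the mean of 6 slow members, each relative to its 31-array mean. From 0 to 12 weeks in PBS, 12 of 13 fast and 2 of 6 slow members fell, with medians of −4.26 and −2.0, while 0.885% of all genes fell. The 2 slow members called were Mybpc1 and Myoz2, which fell by 4.37 and 3.20. The slow members not called, Myh7, Tnnc1, Tnni1 and Tnnt1, often read low elsewhere too. They were at or below 6.18, the median of all deposited values, on 19, 15, 7 and 5 of the other 28 arrays. Such genes have little room to fall, so the 2 counts do not compare the fibre types alone. Without PBS at 0 weeks replicate 1 or without PBS at 12 weeks replicate 1 the fast count was 8. The slow count was 1 without either of these, without PBS at 0 weeks replicate 2 or without PBS at 12 weeks replicate 3. Against PBS at 12 weeks 13 of 13 fast and 2 of 6 slow members were higher in jak1i, and the same counts held in jak3i. The fast minus slow difference was −3.17, −1.66 and −2.15 in PBS at 12 weeks. Among the other 28 arrays it ran from −3.56 to 1.99 with a median of 0.72, and 3 of the 28 fell within or below the PBS range at 12 weeks. These were jak3i at 12 weeks replicate 2 (−3.56), jak3i at 6 weeks replicate 2 (−2.91) and PBS at 0 weeks replicate 1 (−1.84), in which the slow mean was high at 3.16, 3.43 and 2.21. In PBS at 12 weeks the slow mean itself was −2.45, −1.02 and −1.83 and the fast mean −5.62, −2.67 and −3.98.

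**Figure D4:**
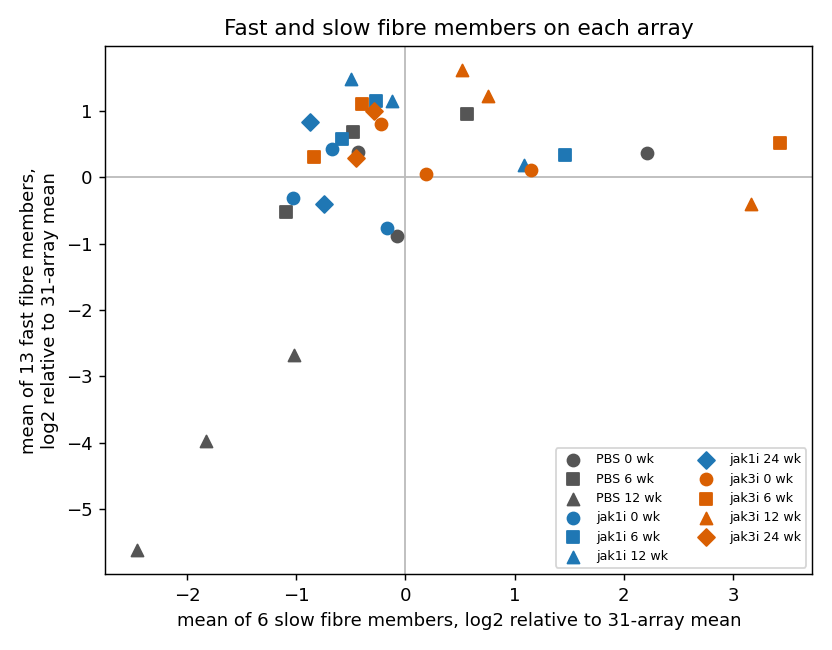
Mean of the 13 fast members (vertical) against the mean of the 6 slow members (horizontal) on each array, both log2 relative to the 31-array mean; colour is the arm and shape the treatment time. The 3 PBS arrays at 12 weeks lie at the lower left, and jak3i arrays at 3.43 and 3.16 lie far to the right with fast means of 0.52 and −0.40.

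Some slow genes also read low on arrays outside PBS at 12 weeks. Myh7 was at or below the table median of 6.18 on 19 of the 28 arrays outside PBS at 12 weeks. Tnnc1 was at or below it on 15, Tnni1 on 7 and Tnnt1 on 5. Of all 44 members, 38 were above it on all 28 arrays. Isoform pairs were compared as the fast minus the slow gene, each first taken relative to its own 31-array mean, so the sign does not say which isoform was more abundant. Atp2a1 minus Atp2a2, the fast and slow calcium pump, was between −5.09 and −2.93 in PBS at 12 weeks and between −0.87 and 2.17 elsewhere, without overlap. The other 6 pairs overlapped. Tnnc2 minus Tnnc1, the fast and slow troponin C, was between −4.79 and −2.18 in PBS at 12 weeks and between −4.52 and 2.22 elsewhere, with 4 of the 28 other arrays below the highest PBS value. For the troponin pairs Tnni2 minus Tnni1 and Tnnt3 minus Tnnt1 that number was 3 each. It was 8 for Myh4 minus Myh7, whose lowest value, −6.65, was on jak3i at 12 weeks replicate 2, and 5 for Myoz1 minus Myoz2. Atp2a2 is also expressed outside muscle, and its own change in PBS was 0.23 (limma adjusted p = 0.331). For Mybpc2 minus Mybpc1, PBS at 12 weeks gave −0.55 to 0.29, inside the −1.79 to 1.54 of the other arrays.

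Outside PBS at 12 weeks, Myh7, Myh4, Tnnt1 and Tnnc1 varied most among the members. The SD over the 28 arrays was 1.99 for Myh7, 1.92 for Myh4, 1.85 for Tnnt1 and 1.71 for Tnnc1, and 0.37 for Acta1 and 0.43 for Tnnc2. Myh7 was high on 5 arrays: 11.73 on jak3i at 6 weeks replicate 2, 11.37 on jak3i at 12 weeks replicate 2, 9.70 on PBS at 0 weeks replicate 1, 9.44 on jak1i at 6 weeks replicate 3 and 9.04 on jak1i at 12 weeks replicate 1. The next array was at 7.45 and the median of the 28 was 5.45. The same 5 arrays gave the 5 highest values of Tnnc1, 11.40, 11.28, 9.43, 9.24 and 8.53. In the order of the Myh7 values, Tnnt1 was 11.86, 11.73, 10.38, 9.90 and 9.16 on them and Tnni1 10.11, 9.89, 9.06, 7.87 and 7.10. Myl2, the slow myosin light chain and no member, read 12.28, 12.04, 10.24, 10.30 and 9.34 on them and 8.02 or less on every other array. The 5 arrays came from 5 groups in all 3 arms, and in each case the other 2 arrays of the group were lower. Acta1 on these 5 arrays was between 13.45 and 13.80.

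Tnnt1 and Tnni1 were also high on a second set of arrays, in which a gene of immature muscle was high. Myh8, the neonatal myosin heavy chain and no member, was at 10.70 on jak3i at 0 weeks replicate 1, 9.89 on PBS at 0 weeks replicate 1, 9.27 on jak3i at 12 weeks replicate 3, 9.18 on PBS at 0 weeks replicate 2 and 8.61 on jak1i at 0 weeks replicate 1. The median of the 28 arrays was 6.11 and the next highest array 7.69. On these 5 arrays Tnnt1 was 10.69, 10.38, 10.08, 8.24 and 8.90, and Tnni1 was 9.32, 9.06, 8.00, 7.55 and 7.70. Sln was 9.48, 9.21, 10.79, 9.00 and 8.88. Myh7 on them was 6.29, 9.70, 4.86, 5.05 and 5.17, so 1 of the 5 was also among the arrays of high Myh7. Myog, a myogenic transcription factor, was 8.17, 7.66, 9.69, 7.50 and 7.38 on these arrays. Sln was about as high on some other arrays, such as jak3i at 12 weeks replicate 2 at 8.87 and jak1i at 6 weeks replicate 1 at 8.84. Of the 5 arrays, 4 were from 0 weeks, and whether the sampling or the skin at that time differed was not tested.

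**Figure D5:**
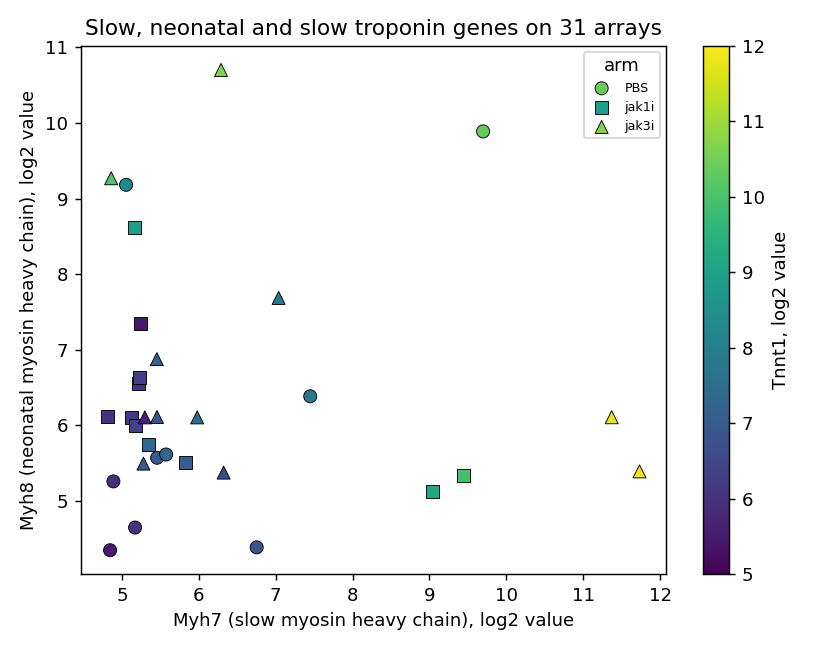
Myh8 (vertical) against Myh7 (horizontal), log2 values on the 31 arrays, with the arm as shape and the log2 value of Tnnt1 as colour. Arrays with high Myh7 (9.04 to 11.73) and arrays with high Myh8 (8.61 to 10.70) are separate except for PBS at 0 weeks replicate 1, and Tnnt1 is 8.24 or more in both.

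Myh4 was the third gene with its own pattern. It read 8.02 on jak3i at 24 weeks replicate 2, 8.33 on jak1i at 6 weeks replicate 1 and 8.70 on jak1i at 24 weeks replicate 2, against a median of 12.84 over the 28 arrays. On those 3 arrays Myh2 was 12.38, 13.11 and 11.43 and Myh1 14.10, 14.26 and 13.52. The second Myh4 probe set read 4.89, 7.02 and 5.02 there. PBS at 0 weeks replicate 2 at 8.93 and jak1i at 0 weeks replicate 1 at 9.84 were also low. Myh2, Myh1 and Myh4 lie close together on chromosome 11 in GRCm38.p6, and the Myh1 probe set is of a type that may bind related transcripts.

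Muscle genes outside the 44 were read from further lists. Of 29 other sarcomere and Z disc genes on the array, 17 fell in PBS from 0 to 12 weeks, with a median of −2.10. Of all genes, 0.885% fell in this comparison. The largest falls were in Myom2, an M band protein (−4.54), Csrp3, a Z disc LIM protein (−4.26), and Trim63, a muscle ubiquitin ligase (−3.77). Of 12 further calcium genes 3 fell, Srl by 3.40, Cacng1 by 2.14 and Hrc by 2.06. Of 15 genes on the further energy list 3 fell, Art1 by 3.10, Fabp3 by 2.74 and Pfkm by 2.50. Art1 was placed on that list but is not an enzyme of energy supply. Of 16 genes of the membrane complex and neuromuscular junction 3 fell, among them Chrna1, the acetylcholine receptor α subunit (−2.24), and Sgca, a sarcoglycan (−1.82). Of 14 myogenic regulators Myf6 (−2.71) and Myog (−2.24) fell. Of 5 further slow fibre genes, Myl2, Myl3, Atp2a2, Casq2 and Tpm3, 0 fell and 0 had an unadjusted p under 0.05, with a median of −0.30. These 5 genes are also on the sarcomere or calcium lists above. Their mean in PBS at 12 weeks, −0.24 to 0.07, lay inside the −0.55 to 1.50 of the other arrays. Atp2a2 is also expressed outside muscle, so this list does not measure slow fibres alone. The log2 of its summed signals was 13.01 to 13.15 in PBS at 0 weeks and 13.06 to 13.21 at 12 weeks. Of 6 embryonic and neonatal genes 0 fell, and 4 had an unadjusted p under 0.05, with Myh8 at −3.75 and a limma adjusted p of 0.0523. Without PBS at 0 weeks replicate 1 these counts were lower, with 9 of the sarcomere genes, 1 of the calcium genes and 0 of the energy, membrane and myogenic genes. The calcium count was 1 and the membrane count 0 also without PBS at 0 weeks replicate 2 or PBS at 12 weeks replicate 1, and the myogenic count was 0 also without PBS at 12 weeks replicate 1 or 3. At 12 weeks against PBS, 19 of the 29 sarcomere genes were higher in jak1i and 22 in jak3i, as were 13 and 15 of the 15 energy genes. Of the 5 further slow genes 0 were higher in either arm, and 1 was lower in jak1i, a call absent whichever array was left out. The energy counts were 8 without jak1i at 12 weeks replicate 2 and 9 without jak3i at 12 weeks replicate 1.

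Markers of other cell types in skin were set beside these results. In PBS from 0 to 12 weeks, when 0.885% of all genes fell, 1 of 10 smooth muscle genes did. It was Synpo2 (−3.54), which striated muscle also expresses, and 0 fell without PBS at 0 weeks replicate 1. The calls were 0 of 7 for heart muscle, 0 of 8 for fat cells, 0 of 6 for brown fat, 0 of 5 for Schwann cells, 0 of 8 for endothelium, 0 of 9 each for epidermis and hair shaft, 0 of 7 each for fibroblasts and macrophages and 0 of 6 for T cells. At an unadjusted p under 0.05 these lists had 2, 0, 2, 0, 0, 0, 0, 0, 4 and 0 genes. Their medians ran from −0.49 for brown fat to 0.95 for macrophages. The mean of the 6 brown fat genes, each relative to its 31-array mean, was −0.95 to −0.70 in PBS at 12 weeks, below all 28 other arrays at −0.50 or more. Its largest change was in Cox7a1 (−2.36, limma adjusted p = 0.106), which skeletal muscle also expresses. Myh6, the cardiac myosin, stayed between 3.22 and 3.88 on all 31 arrays and Ucp1, the brown fat uncoupling protein, between 4.30 and 5.06. Other lists also had calls at 12 weeks, where jak1i and jak3i were compared with PBS. Smooth muscle genes were higher in 5 of 10 in jak1i and 4 of 10 in jak3i, brown fat genes in 3 of 6 in each, and Schwann cell genes in 1 of 5 and 2 of 5. Leaving out 1 array at a time gave 1 to 5 and 2 to 5 smooth muscle genes, 1 to 3 and 1 to 2 brown fat genes, and 0 to 3 Schwann cell genes in each arm. The lowest count in each case included the one without PBS at 12 weeks replicate 3. The brown fat calls in both arms were Cox7a1, Ppargc1a and Cidea, while Ucp1 differed by 0.05 and 0.02 with limma adjusted p = 0.858 and 0.944. Cox7a1 and Ppargc1a are also on the further muscle energy list, so they were counted in both lists. T cell genes were lower in 3 of 6 in jak1i and 5 of 6 in jak3i, and hair shaft genes in 0 of 9 and 4 of 9. Endothelial genes were higher in 0 of 8 and 7 of 8, with 1 lower in jak1i. The share of all genes that were lower is not given here, so the counts of lower genes lack that reference. Leaving out 1 array at a time gave 2 to 5 T cell genes in jak1i, and in jak3i 0 to 4 hair shaft and 2 to 7 endothelial genes, with both lists down without replicate 1 or 3 of PBS or replicate 1 of jak3i, and hair shaft genes at 0 also without jak3i replicate 2. Heart muscle and macrophage genes had 0 to 2 calls in either direction. Fat cell, epidermis and fibroblast genes had 0 calls, with 5, 2 and 1 genes in jak1i and 5, 1 and 1 in jak3i at an unadjusted p under 0.05. The log2 of the summed T cell signals was 10.33 to 10.75 in PBS, 9.50 to 9.73 in jak1i and 9.14 to 9.55 in jak3i. For the hair shaft it was 13.59 to 15.18, 9.69 to 11.51 and 9.02 to 11.43, and for endothelium 10.46 to 10.93, 10.43 to 11.06 and 11.14 to 11.57. No array value can be read as 0, and the part of these cells in the muscle result was not tested.

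Genes outside the 44 were also ranked by how closely their values followed the mean of the members over the 31 arrays. The 10 closest were Tmem182, Srl, Hjv, Myom2, Pde4dip, Cmya5, Fhl1, Synpo2, Myom1 and Mypn, with Pearson correlations from 0.978 to 0.963. Over the 28 arrays without PBS at 12 weeks the correlations of these 10 were between 0.861 for Myom2 and 0.952 for Tmem182, and Tmem182, Srl and Mypn remained among the 10 closest. All arrays share their normalisation, and 3 of them stand far apart.

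Of the 44 members 15 had several probe sets, 42 in all. In PBS from 0 to 12 weeks 33 of these 42 were lower by over 1 log2 unit, 9 changed by less and 0 were higher by over 1. The 9 had means of 6.33 or less over the 31 arrays.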

How the data were processed

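Skin RNA was measured on 31 Affymetrix arrays. The deposited table holds log2 values, which the authors made with RMA, per the submitters' processing notes (no version is given there). Values ran from 2.59 to 14.69 and array medians from 6.05 to 6.24. Of 45101 probe sets, 34945 had 1 symbol and were no controls, and they covered 18193 genes. Here 1 model of 11 group means was fitted to all 31 arrays with limma 3.58.1 in R 4.3.3, and 18 contrasts were tested with Benjamini-Hochberg adjustment over all genes at 0.05. The moderated test had 20 residual and 2.5 prior degrees of freedom, and intervals are 95% intervals. The number of arrays limits the precision, and p-values rest on a spread between samples that is shared by all 11 groups. Whether mice were sampled repeatedly is not stated. In simulated data for PBS from 0 to 12 weeks with all 18193 genes, 91% of changes of 2 and 99% of changes of 4 log2 units were recovered, and 13 unchanged genes were called. Genes were simulated independently, each with the same spread in every group. The members vary together, and their mean had an SD of 1.13 in PBS at 12 weeks against 0.69 at 0 weeks. The simulation therefore cannot give the recovery for the members.

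The members and lists were chosen with earlier results of these data known. All members could be named. Of the other lists the 3 largest called changes, or the 2 smallest p, in PBS from 0 to 12 weeks were named, and the 10 genes closest to the member mean. Immature-muscle genes and Myl2 in the paragraphs on single arrays were chosen after their values were seen. Promoter windows came from RefSeq. Scan dates and detection calls were not used here. Alternatives were array centring, a filter on dim genes, the mean of probe sets, another variance model, blocks for the replicate number, the compared arrays only, leaving out each array, and, chosen after seeing the data, PBS at 6 weeks as the control and likeness over 28 arrays.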

Additional observations from a re-analysis of the deposited data

Results flagged for a closer look

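Differences between arms in the change from 0 to 12 weeks were past the threshold of limma for many members. In jak1i minus PBS 38 of 44 members were called, and in jak3i minus PBS 39 were, while 2.99% and 2.59% of all genes were higher. The largest differences in jak1i minus PBS were in Myh2 (7.68), Neb (6.43) and Myot (6.42), on the log2 scale and with limma adjusted p = 0.00128, 0.00834 and 0.00947. In jak3i minus PBS they were in Neb (6.51), Ttn (6.13) and Myot (6.06), each with a limma adjusted p of 0.0121. The difference in Myh2 combined a fall of 4.77 in PBS with a rise of 2.91 in jak1i. Both sets rest on the same PBS arrays. The jak3i count was 0 without jak3i at 12 weeks replicate 1 or without PBS at 0 weeks replicate 1, and 24 without PBS at 12 weeks replicate 3.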

How the results depend on the processing

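Counts of called members kept within 1.5 times of their value under array centring, the dim gene filter, the mean of probe sets and the trended, robust variance. With the compared arrays only, the fit has fewer degrees of freedom and takes the spread from those arrays alone. The count was then 24 for PBS from 0 to 12 weeks and 0 for PBS from 6 to 12 weeks. In the latter, 40 members had an unadjusted p under 0.05. The count was 0 for jak1i from 0 to 6 weeks, 3 from 0 to 12 weeks and 2 for jak3i from 0 to 12 weeks. With PBS at 6 weeks as the control the counts against PBS at 12 weeks became 0 and 0. Without Mybpc1 and Myoz2 the fast minus slow difference was 1.70 in jak3i at 24 weeks and −3.14 in PBS at 12 weeks, since those 2 genes are left out of the slow mean. Leaving out 1 array at a time gave 25 to 39 called members for PBS from 0 to 12 weeks, 18 to 37 for PBS from 6 to 12 weeks and 0 to 2 for jak1i from 0 to 6 weeks. The range was 38 to 39 for jak1i and 39 to 40 for jak3i against PBS at 12 weeks, and 34 to 38 and 0 to 39 for the differences of change.

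Of 302 results on single genes, 4091 of 4542 alternative values stayed on their side of the threshold with the same sign, 430 lost the call, 8 gained one and 13 turned sign, none of the 13 past the threshold. Atp2a2 became −0.05 in PBS from 0 to 12 weeks with the mean of probe sets. Leaving out 1 array at a time gave, in PBS from 0 to 12 weeks, −1.99 to 0.33 for Myh7 (highest without PBS at 0 weeks replicate 1) and −0.04 to 1.02 for Krt86 (lowest without PBS at 12 weeks replicate 3). In PBS from 6 to 12 weeks it gave −0.96 to 0.36 for Myh7 and −0.49 to 0.70 for Tnnc1, both highest without PBS at 6 weeks replicate 1, with 0.22 for Tnnc1 without PBS at 12 weeks replicate 1. In jak1i against PBS at 12 weeks it gave −0.33 to 1.60 for Myh7, −0.07 to 1.25 for Tnnc1 and −0.41 to 0.41 for Tnni1, each lowest without jak1i replicate 1, with −0.18 for Tnni1 without PBS replicate 1. With PBS at 6 weeks as the control Tnni1 became −0.27 and Sln −1.32 in jak1i, and Myh4 −0.97 in jak3i. The cause of these changes was not tested.

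The labels do not say that replicate numbers pair samples, and of 58 same-number pairs 16 had a correlation of deviations over 0.1 (range −0.477 to 0.495). With the replicate number as a block, 39 members were called in PBS from 0 to 12 weeks, 34 from 6 to 12 weeks, 39 and 40 against PBS at 12 weeks, and 38 and 39 for the differences of change. As a random block it had a correlation of −0.047.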
